A study of Rattus norvegicus with 110 samples.

Results

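The 200 genes described here were those whose average transcript length differed most between the livers of high-dose carbon tetrachloride (CCl4) rats and vehicle rats. They were chosen by that measured length: for each gene, the mean length over 28 high-dose libraries was divided by the mean over 27 vehicle libraries, and the 200 largest absolute log2 ratios were taken among genes with a mean CPM (the count scaled to the column total) of at least 5 in both sets. Of 31998 identifiers in the liver tables, 8728 could be members, and of the 200 members 94 were longer and 106 shorter at the high dose. The 83 liver libraries came from F2 males of the outbred Sprague Dawley strain, sampled on day 39 of treatment by oral gavage 3 times a week with olive oil (vehicle), 8% CCl4 (low dose) or 50% CCl4 (high dose) in olive oil. Each dose was given to 4 cohorts that differed in the 50% CCl4 given to their male ancestors: none in cohort A, the F1 sire in cohort B, the F0 grandsire in cohort C and both in cohort D. Every group held 7 males, except the vehicle group of cohort C with 6, and the males came from 34 litters and 4 necropsy dates. Mothers were not treated, every F2 male was dosed with olive oil at the least, and each library was made from 1 male. The question behind the groups was whether liver injury in the ancestors changed the response of the offspring.

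Most genes can be transcribed and spliced into several transcripts that differ in their promoter, exons or 3′ end, and so in length. The average transcript length of a gene is the mean of the effective lengths of its transcripts, weighted by their abundance in that library, so it moves when the mix of transcripts moves. An effective length is, in its plain form, the number of positions at which a sequenced fragment can start on a transcript. It depends on the fragment lengths of the library, and here also on the GC bias correction that the authors used. CCl4 is turned into a radical by cytochrome P450 enzymes of the hepatocytes around the central veins, and repeated dosing is a standard model of liver injury and fibrosis.

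Library totals ran from 31638559 to 51343589 counts, and no member had a count of 0 in any library (lowest count 25). A length written with no more than 3 decimals was read as a single effective length, that is, as 1 transcript holding all of the gene's abundance in that library. This is an inference from the format of the values, since transcript-level values were not used here. By this mark 5905 of the 8728 genes used 1 transcript in every library and 2823 used more than 1 in at least 1 library. In these means over many libraries the 1-transcript genes hardly moved: the central 95 percent of their log2 length ratios (2.5th to 97.5th percentile) ran from -0.0067 to 0.026, with a median of 0.0063. limma nonetheless called 1709 of them at the high dose, 1691 of these as longer. That one-sidedness depended on the scaling: over all genes 2270 were called longer and 169 shorter, and with each library's median length removed 437 and 865. Among the genes with more than 1 transcript that range was -0.0653 to 0.0603, and they held all members but 1. The remaining member had 1 transcript whose effective length was 1 or 2 bases in every library, so its ratio of means (1.41 bases in vehicle, 1.21 at the high dose) describes a difference of under 1 base. Single libraries spread more than the means. The interquartile range of log2 deviations from each gene's mean, over all 8728 genes, reached 0.156 (low dose, cohort A, replicate 1). The median absolute shift of the members was 0.0808. This spread was not split by number of transcripts, and what set it was not tested. At the edge of the choice, the last 2 members had log2 ratios of -0.0488 and 0.0483, and the first 2 genes left out had -0.0482 and -0.0481 (the second of these was Stx2, a syntaxin).

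**Figure D1:**
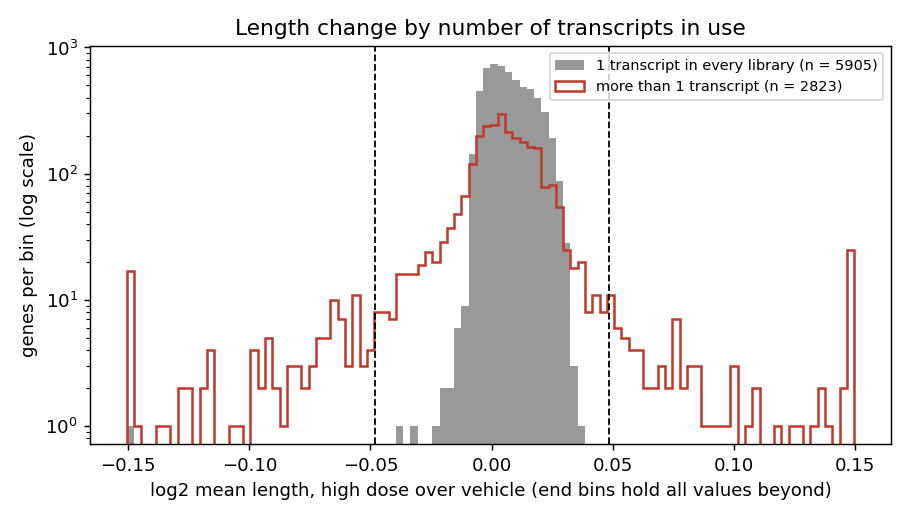
Number of genes per bin (log scale) by the log2 ratio of mean length at the high dose over vehicle, for genes with 1 transcript in every library (grey) and more than 1 (red). Dashed lines mark the smallest absolute ratio of a member, 0.0483: the grey genes lie inside them apart from 1, at -0.213, which is drawn in the left end bin.

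The shifts of most members were small. The median change was 5.96% among the lengthened members and -5.3% among the shortened ones, 70 of the 200 had an absolute log2 ratio over 0.1, and 4 were over 0.5. In 129 members the difference of the means was under 1 SD of the vehicle libraries, and in 23 it was over 2 SDs. Since the members were picked on these libraries, the sizes describe them and are no test. For the record, limma called the high-dose difference in 146 of the 200 members and in 27.9% of all genes tested, and the vehicle and high-dose libraries did not overlap in 1 member and in 0.0115% of all genes. The median coefficient of variation of length in vehicle liver was 7.88% over the members and 2.51% over all genes with more than 1 transcript, members included. Over all 8728 genes, most of them 1-transcript genes, it was 1.93%. The choice itself favours genes with variable lengths, so this is a description. Their counts were not unusually low, with a median vehicle CPM of 19.8 beside 24.4 for the genes with more than 1 transcript.

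Symbols were at hand for 34 members, through a gene list of the study that pairs identifiers with symbols, so the other 166 are described by counts. The study chose that list for F0 effects on gene expression in these samples, so the members with a symbol are a selected part. The 4 largest shifts were all in members without a symbol. ENSRNOG00000054775.1 ran from 1079 to 2160 bases in vehicle libraries (median 1895), from 964 to 1766 at the low dose (median 1486) and from 673 to 1629 at the high dose (median 889). Its length was halved or nearly so in most high-dose males, and 26 of the 28 lay outside the vehicle range. The log2 ratio was -1.03, and its high-dose mean was 907 ± 173 bases (SD, n = 28) against 1852 ± 209 in vehicle (n = 27).

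ENSRNOG00000042786.4, the next most shortened, ran from 959 to 2130 bases in vehicle (median 1652) and from 777 to 1686 at the high dose (median 1129). Both dose groups spread widely and overlapped over most of the vehicle range, with 5 of 28 high-dose libraries outside it. In the other direction, ENSRNOG00000030247.5 ran from 652 to 3157 bases in vehicle (median 2040), 1360 to 3463 at the low dose (median 2636) and 1444 to 4165 at the high dose (median 2871). Only 7 high-dose libraries passed the vehicle range, although its ratio of 0.56 was the largest of the lengthened members. ENSRNOG00000020027.8 was tighter, with 1366 to 2232 bases in vehicle (median 1813) and 2064 to 3003 at the high dose (median 2656), and 26 of 28 high-dose libraries lay above the vehicle range.

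Among the members with a symbol, 23 were longer at the high dose. Arglu1, a splicing and transcription coactivator, had the largest ratio of them (0.28), but its lengths ran from 103 to 362 bases in vehicle (median 200) and 115 to 395 at the high dose (median 232), and the groups overlapped almost wholly. Without the second necropsy date its difference was 0.14. Rsrp1, an arginine- and serine-rich protein, ran from 1145 to 1675 bases in vehicle (median 1431) and 1342 to 1759 at the high dose (median 1579). Nfx1, a zinc finger transcription factor, had a small but orderly shift. It ran from 2764 to 2953 bases in vehicle (median 2874), 2801 to 3048 at the low dose (median 2932) and 2887 to 3119 at the high dose (median 3031), with 26 of 28 high-dose libraries above the vehicle range. Kmt2c, a histone H3 lysine methyltransferase, had a log2 ratio of 0.13, Zfc3h1, a factor of nuclear RNA decay, 0.0621, and Nfyb, a subunit of the CCAAT-binding factor NF-Y, 0.0547. Fubp3, a single-strand DNA and RNA binding protein, had 0.0642 and Kdm5d, a Y-linked histone demethylase with a close relative on the X chromosome, 0.0539.

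Tsc22d1, a TGF-beta-inducible regulator of transcription, varied little between vehicle libraries: 1411 to 1462 bases in vehicle (median 1436), 1425 to 1482 at the low dose (median 1451) and 1446 to 1590 at the high dose (median 1499). Its ratio was only 0.0661, yet 26 of 28 high-dose libraries lay above the vehicle range. Adamts10, a secreted metalloprotease of microfibrils, ran from 2199 to 3209 bases in vehicle (median 2798) and from 2904 to 3721 at the high dose (median 3284), and 19 high-dose libraries were above the vehicle range. Prkd3, a protein kinase D, ran from 1423 to 1916 bases in vehicle (median 1705) and 1711 to 2543 at the high dose (median 1944), with 15 above it. Slfn4, a Schlafen family gene of myeloid cells whose relatives resemble it in sequence, was the least regular: 688 to 2100 bases in vehicle (median 1341), 967 to 2602 at the low dose (median 1915) and 733 to 2977 at the high dose (median 1410), so that the median was longest at the low dose and the longest single library was at the high dose.

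Other lengthened members kept within the vehicle range for most libraries. Cntrl, a centriole protein, had a ratio of 0.22 and Nol8, a nucleolar protein whose identifier is also paired with NEWGENE_1309551, had 0.19. Without the fourth necropsy date the limma difference of Nol8 fell from 0.20 to 0.11. Tsr1, a ribosome maturation factor, had 0.15, Rgl2, an exchange factor for Ral, 0.14, and Ctdsp1, a phosphatase of the RNA polymerase II tail, 0.14. The difference of Rgl2 fell from 0.15 to 0.097 without the fourth date. Vps52, a subunit of a tethering complex of the Golgi, had 0.0824, the deubiquitinase Usp2 0.0738 and the nuclease Dclre1b 0.072. Nup214, a nucleoporin, had 0.0518, Atp1b1, the beta subunit of the sodium pump, 0.0507, and the identifier paired with Zfp629 and Zfp689 was the last member. An identifier with 2 symbols may join reads of 2 genes.

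Shortened members with a symbol numbered 11, and their shifts were smaller. The largest belonged to the identifier paired with both Ccnl2, a cyclin that takes part in splicing, and Aurkaip1, here written Ccnl2/Aurkaip1. It ran from 870 to 1157 bases in vehicle (median 965), 879 to 1137 at the low dose (median 969) and 818 to 984 at the high dose (median 893), with 11 high-dose libraries below the vehicle range. Cttn, which encodes the actin-binding protein cortactin, ran from 1746 to 2945 bases in vehicle (median 2653) and 1722 to 2846 at the high dose (median 2376), so that the ranges were almost the same and only the medians parted. Its shift rested on the second necropsy date (ratio -0.33, beside -0.0423, -0.0034 and -0.0807 on the others), and without that date the difference was -0.0517. Crem, a cAMP-responsive regulator with activating and repressing isoforms, ran from 1118 to 1608 bases in vehicle (median 1377) and 1125 to 1534 at the high dose (median 1280), inside the vehicle range in all 28 libraries. Of the others, the clock-regulating kinase Csnk1d had a ratio of -0.0716, the nucleoporin Nup50 -0.0696 and the ubiquitin ligase Rffl -0.0654. Plekha6 had -0.0649, Pisd, which makes phosphatidylethanolamine in mitochondria, -0.0618, the polarity protein Crb3 -0.0612 and Fam107b -0.0551.

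**Figure D2:**
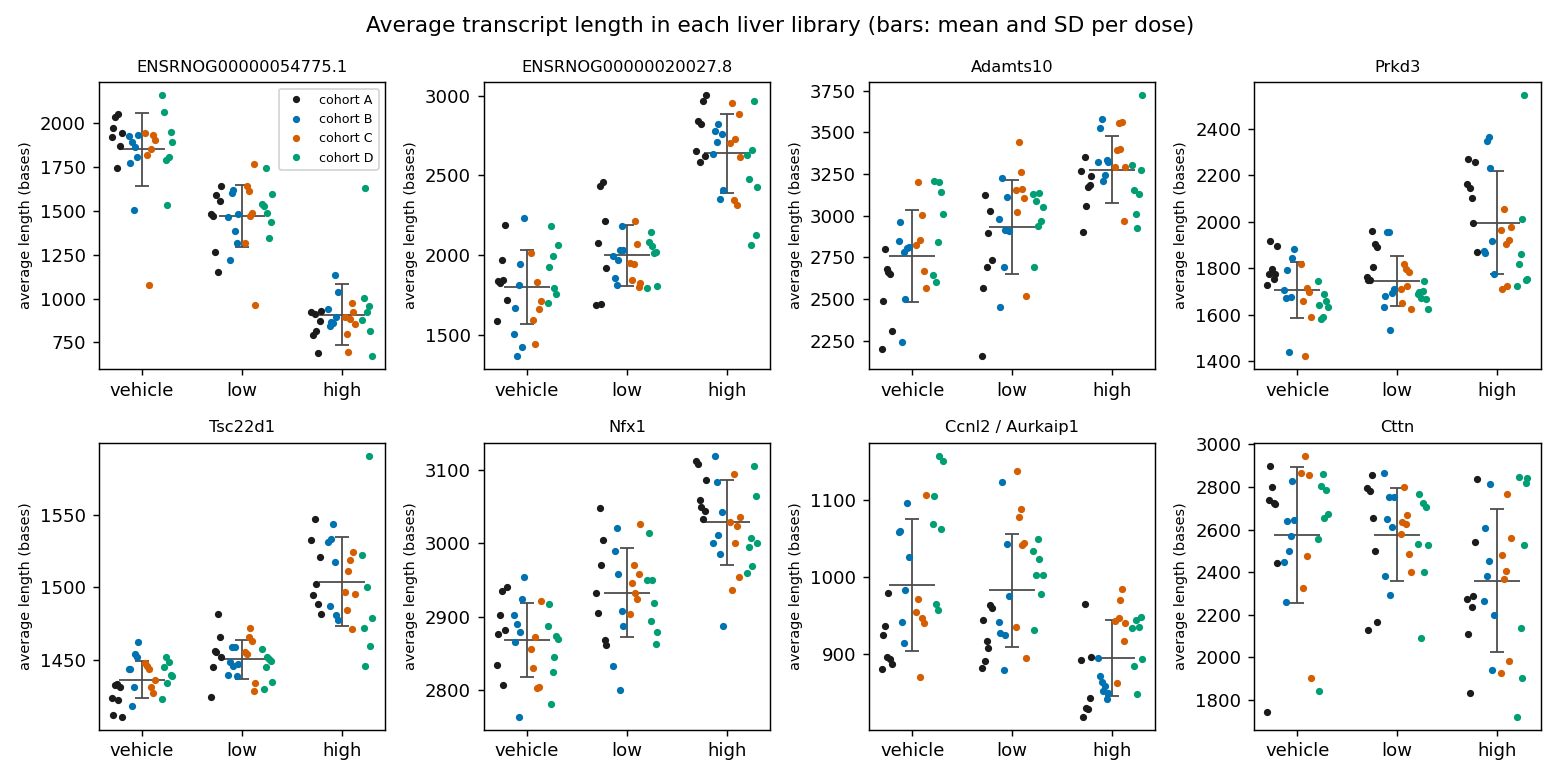
Average transcript length in bases (vertical axis) of 8 members in every liver library by dose, coloured by cohort, with the mean and SD of each dose in grey. The ENSRNOG00000054775.1 libraries step down from medians of 1895 to 1486 to 889 bases, Tsc22d1 and Nfx1 step up within narrow ranges, and the Cttn ranges overlap at every dose.

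The low-dose libraries were not used to choose the members, but they are compared with the same vehicle libraries that were. In 161 of 200 members the low-dose mean lay on the same side of vehicle as the high-dose mean, and in 153 it lay between the other two means. The median low-dose difference was 24.4% of the high-dose difference, with 33.8% among the lengthened and 16.4% among the shortened members. Both differences use the same vehicle libraries, so these counts are descriptions. limma called 1 member at the low dose, where 0.0115% of all 8728 genes were called. This was ENSRNOG00000054775.1, which fell by 0.33 on the log2 scale (SE 0.0563, adjusted p = 0.00121). Without the first necropsy date it was not called (adjusted p = 0.832, difference -0.29). At an unadjusted p under 0.05 there were 46 members of 200 and 244 genes of 8728. With litter mates tied together as a block, 6 genes were called and 5 of them were members, among them Nfx1, which was 0.0323 longer (adjusted p = 0.132 without the block). Per library, the share of members that lay on the high-dose side of the vehicle mean was 43% to 60% in vehicle (median 51.5%), 47% to 73% at the low dose (median 60.3%) and 67.5% to 91% at the high dose (median 83.8%). The lowest high-dose share belonged to replicate 4 of cohort D, which also had the longest ENSRNOG00000054775.1 of that dose (1629 bases, beside 673 to 1003 in its group). Without this male 190 of the 200 members would have been chosen again.

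**Figure D3:**
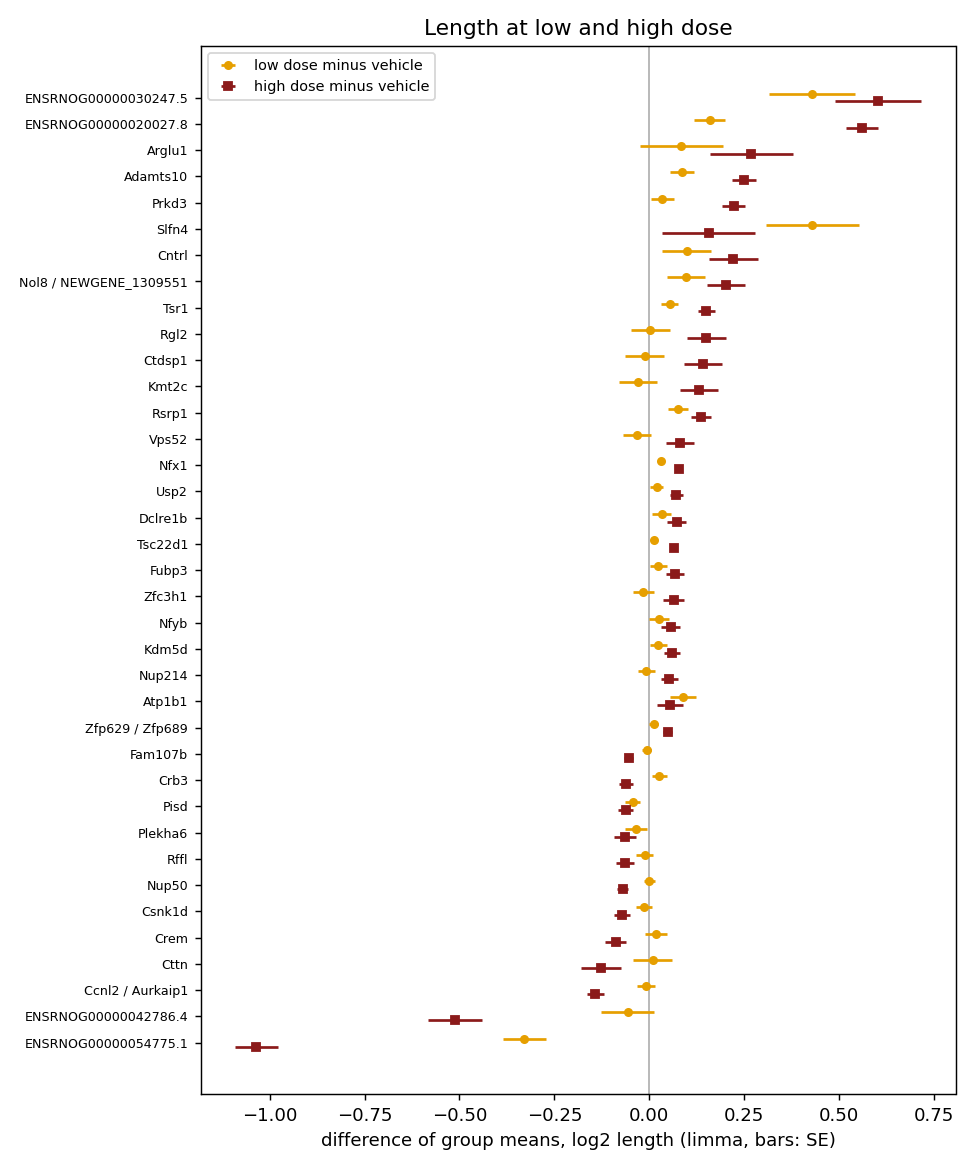
Differences of group means in log2 length against vehicle at the low dose (circles) and high dose (squares) for named members with a symbol and the 4 leading identifiers, with the SE from limma. Most low-dose points lie nearer to 0 than the high-dose points of the same gene, and Slfn4 and Atp1b1 are higher at the low dose.

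The shifts were seen in each cohort at similar size. Taken toward the direction of the choice, the median log2 ratio of the members was 0.0932 with no treated ancestor (A), 0.0981 with a treated sire (B), 0.0745 with a treated grandsire (C) and 0.0859 with both (D). The direction was the same in all 4 cohorts for 161 members, in 3 for 31 and in 2 for 8, and on all 4 necropsy dates for 153. All these libraries were part of the choice. ENSRNOG00000054775.1 went from 1935 ± 105 to 847 ± 87.5 bases (SD, n = 7 each) in cohort A and from 1887 ± 204 to 982 ± 305 in cohort D, and its ratios on the 4 dates ran from -1.14 to -0.80. Nfx1 had ratios of 0.07 to 0.09 in every cohort. Arglu1 had 0.29, 0.38 and 0.35 in cohorts A, B and D but 0.08 in cohort C, and on the fourth date its ratio was -0.04. Both low values rested on 1 library, replicate 9 of the vehicle group of cohort C (362 bases, beside 116 to 207 in its group), without which they were 0.37 and 0.17. Slfn4 was longer at the high dose in cohort D (0.62) and shorter in cohort C (-0.20). Whether the high-dose shift differed between cohorts was tested with limma as an interaction over the 3 contrasts with cohort A. It was called in 0 of 200 members and in 0% of all genes, and 14 members and 82 genes had an unadjusted p under 0.05. The smallest p among members with a symbol was that of Ccnl2/Aurkaip1 (0.00554, adjusted 0.616), whose ratios were -0.08 in A, -0.23 in B, -0.04 in C and -0.23 in D. Rsrp1 followed (0.00669, adjusted 0.616), with 0.27 in A, 0.05 in B, 0.18 in C and 0.05 in D. In vehicle liver its length was 1272 ± 99.3 bases in cohort A and 1461 ± 134 in B, 1417 ± 84.9 in C and 1555 ± 77.4 in D, while the high-dose means lay between 1516 and 1607 bases.

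**Figure D4:**
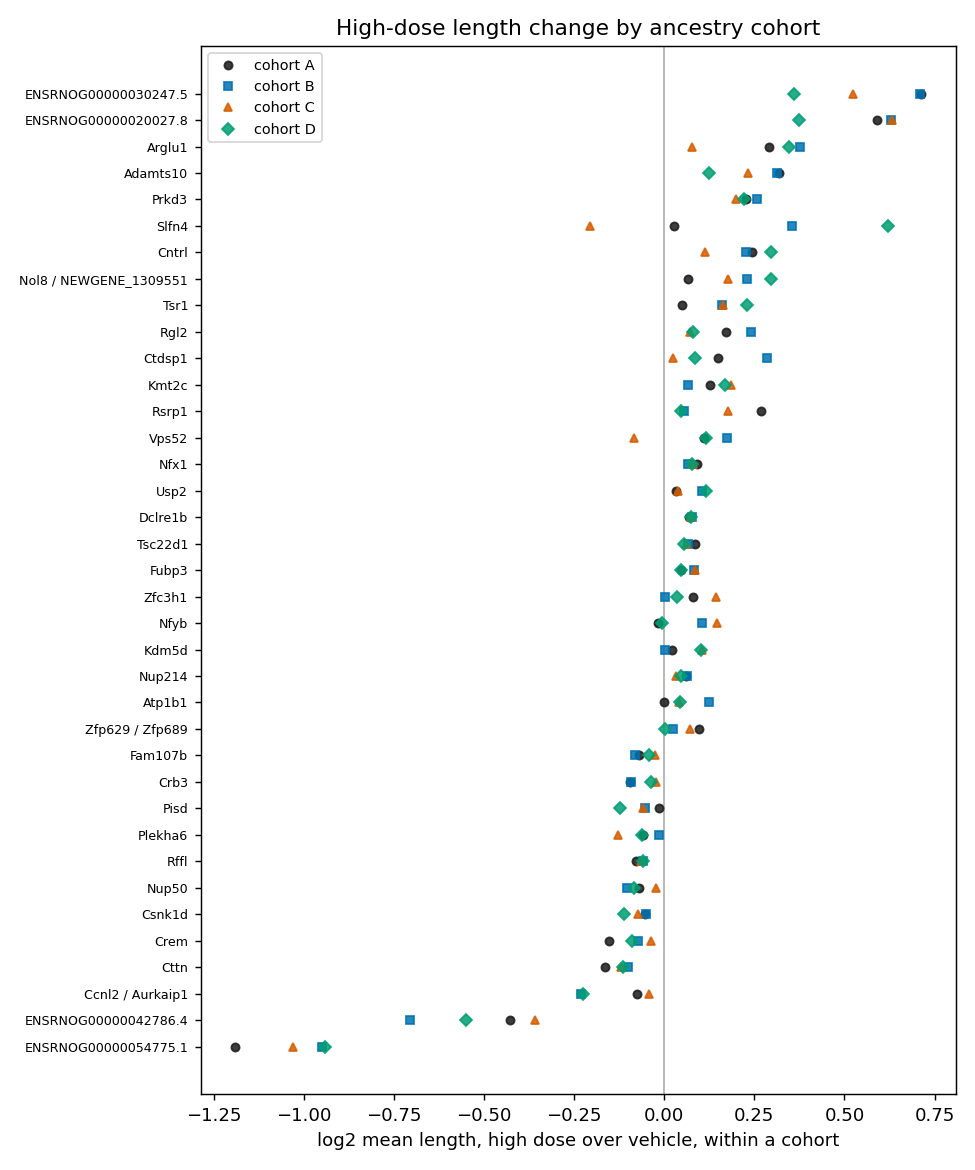
Log2 ratio of mean length at the high dose over vehicle within each ancestry cohort, for named members with a symbol and the 4 leading identifiers. The 4 cohorts lie close together for Nfx1 and Tsc22d1, and apart for Slfn4, Rsrp1 and Ccnl2/Aurkaip1, while the low Arglu1 point of cohort C (0.08) was 0.37 without 1 library.

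Ancestral treatment was tested as an F0 and an F1 term beside the dose, which the choice of members did not use. For the F0 term limma called 48 of 200 members, 21 longer and 27 shorter in the offspring of treated grandsires, where 39.7% of all genes were called. The share of members was below that of all genes, and 2543 of the 5905 1-transcript genes were called too, 2531 of them longer, with a median difference of 0.0029 on the log2 scale. The direction turned with the scaling: over all genes 3324 were called longer and 138 shorter, and with each library's median length removed 2372 and 3693, with 18 members longer and 39 shorter. The F0 calls rested on the design of the test: with the litter as a block 0 members were called, and 1 member was called without either the first or the third necropsy date. Calls over all genes went from 3462 to 2, 4 and 3 in the same fits. Of the 34 members with a symbol 9 were called, and of the 166 without 39. Since the symbols come from the study's list of F0 effects on expression, the genes named here are not unselected examples. Rsrp1 was 0.11 longer with F0 treatment (SE 0.022, adjusted p = 0.0217, or 0.104 with the litter block) and Ccnl2/Aurkaip1 0.09 longer (SE 0.0199, adjusted p = 0.0262, or 0.104). The median absolute F0 difference of the members was 0.0208. ENSRNOG00000030247.5 was 0.23 longer (adjusted p = 0.0504). Tsr1 (-0.08), Prkd3 (-0.09), Ctdsp1 (-0.12), Cntrl (-0.12) and Arglu1 (-0.22) were shorter and Adamts10 (0.09) longer, at adjusted p between 0.0504 and 0.0617, and none of these was called with the block. The F1 term was called in 0 members and 0% of all genes, with 19 members and 343 genes at an unadjusted p under 0.05. Without the second necropsy date 28 members were called, but so were 3588 of the 8728 genes, a larger share.

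Count changes stood beside the length changes without a common direction. Counts were scaled by TMM (trimmed mean of M-values), and on plain CPM every high-dose change would stand 0.61 higher on the log2 scale (the median over all genes tested). Among the lengthened members 35 had higher and 59 lower counts at the high dose, and among the shortened ones 34 and 72. The median count change was -0.147 over the members and -0.143 over the 8728 genes that could be members, and the median absolute change was 0.391 and 0.311. These counts come from the libraries that chose the members, so they are descriptions: edgeR called 25 of 200 members (10 higher, 15 lower) and 25.3% of all genes tested, or 838 of the 8728 genes that could be members (9.60%). In 27 members the length shift was larger than the count change, and 55 members changed their count by less than 0.2 in either direction. ENSRNOG00000030247.5 was such a case, with a count change of -0.18, and Slfn4 another, with -0.0885. Their scaled counts overlapped fully in the case of Slfn4, at 14.3 to 51 CPM in vehicle (median 29.2) and 7.69 to 122 at the high dose (median 20.5).

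Where both moved, every pairing occurred. ENSRNOG00000020027.8 became longer and more abundant, from 10.4 to 21.3 scaled CPM in vehicle (median 17.4) to 24.1 to 75.3 at the high dose (median 41.7). Its count rose by 1.35 on the log2 scale (SE 0.0822), and the groups did not overlap. Adamts10 too was longer with a higher count (0.97, SE 0.0882), at 5.09 to 13.7 scaled CPM in vehicle (median 7.78) and 8.81 to 30.4 at the high dose (median 14.6). Prkd3 was longer with a lower count (-0.94, SE 0.0814), at 98.5 to 197 scaled CPM in vehicle (median 148) and 43.6 to 128 at the high dose (median 78.4). Rsrp1 was likewise longer with a lower count (-0.74, SE 0.0856), and so was Ctdsp1 (-0.91). Of the shortened members, ENSRNOG00000054775.1 had a higher count (0.72) and ENSRNOG00000042786.4 (-0.82), Crem (-0.83) and Ccnl2/Aurkaip1 (-0.45) lower ones. The strongest falls in counts among members were -3.44 and -2.87 and the strongest rise was 2.34, all in members without a symbol. The 1 member with a symbol that edgeR called was Atp1b1, at 22.5 to 63.7 scaled CPM in vehicle (median 31.7) and 43 to 142 at the high dose (median 64.9).

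**Figure D5:**
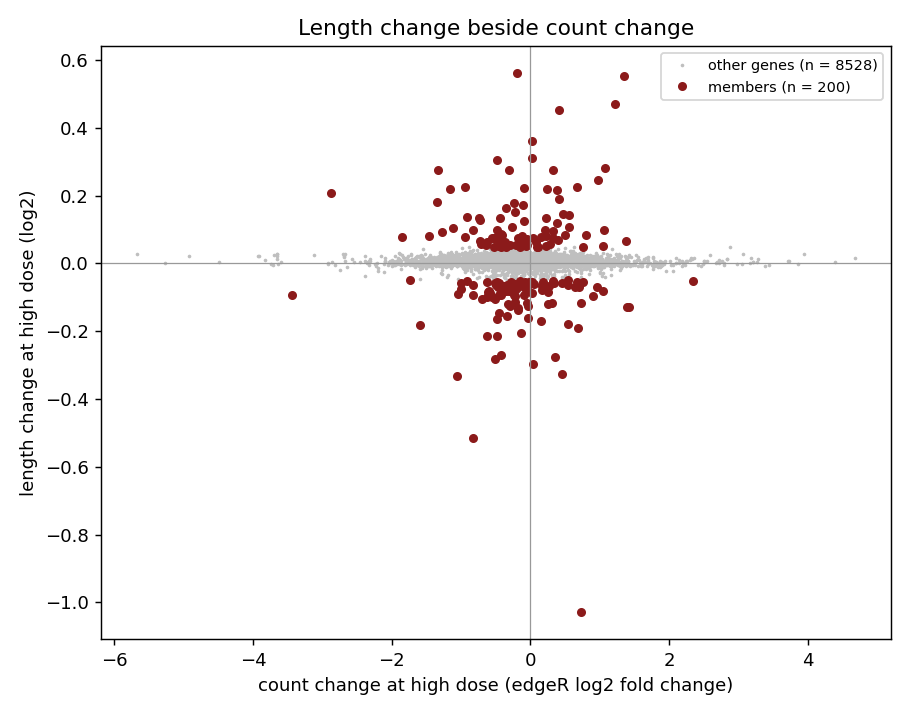
Log2 length ratio at the high dose (vertical axis) against the edgeR log2 fold change of counts at the high dose (horizontal axis) for 200 members (dark red) and the other genes that could be members (grey). Members lie in all 4 combinations of sign, and most genes with very large count changes lie near a length ratio of 0.

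Because a longer transcript gives more fragments per molecule, the length enters the count change when it is used as an offset. With average lengths as offsets the count change of ENSRNOG00000054775.1 went from 0.72 to 1.80, that of ENSRNOG00000030247.5 from -0.18 to -0.83, and that of ENSRNOG00000020027.8 from 1.35 to 0.78. Prkd3 and Ctdsp1 passed the threshold with the offset (-1.14 and -1.05) and Atp1b1 no longer did (0.995, under the threshold of 1). In all, 9 of the 25 calls among members were lost and 5 were gained. Both tables come from the same libraries.

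At the low dose, edgeR called count changes in 2 of 200 members and in 6.26% of all genes tested. The genes tested include many with too low a CPM to be members, so these shares have unlike bases and are not compared. The share among genes that could be members is not given for the low dose or for the F0 term. Both called members were lower and had no symbol, and 1 of the 2 was left without the second or the fourth necropsy date. For the F0 term on counts, 8.93% of all genes tested, the same wider set, were called, and 36 members were called (20 higher, 16 lower). Of these 25 were among the 34 members with a symbol, and those symbols come from a list the study chose for F0 effects on these samples, so that their count is no independent evidence. Among the 166 members without a symbol 11 were called. With the litter as a block, fitted by limma on log2 counts (voom) in place of edgeR, 21 members were called in place of 36. That fall mixes the block with the change of test. Without the first necropsy date 18 were called, and without the fourth 13. Over all genes the calls went from 1697 to 1106, 1121 and 683 in the same fits. Usp2 had the smallest adjusted p for the F0 difference of counts (-1.11, SE 0.201, adjusted p = 0.000153), and Rsrp1 (0.38, SE 0.0736, adjusted p = 0.000401), Ccnl2/Aurkaip1 (0.26, adjusted p = 0.000968), Adamts10 (0.41, adjusted p = 0.000168) and Tsr1 (-0.37, adjusted p = 0.000242) were called too. These edgeR p-values take each male as a replicate, although litter mates share their ancestors. Of the 25 called members with a symbol, 17 were also called in the limma fit with the litter block. The F1 term was called in 0 members and 0.2% of all genes (28 members and 1966 genes at an unadjusted p under 0.05, and 0 members and 25 genes called by DESeq2).

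Kidneys of the same 27 vehicle males gave a second tissue, taken here as 1 group over the 4 ancestries that their labels give. Nearly all genes were longer in kidney than in vehicle liver, with 6231 of the 6296 genes that were longer at the high dose, and all but 110 of the 2432 that were shorter, longer in kidney. The kidney mean lay on the high-dose side of the liver vehicle mean in 85 of 94 lengthened members and in 41 of 106 shortened ones. The liver vehicle mean was also used to choose the members, so these counts are descriptions. The kidney mean lay outside the range of the vehicle livers in 70 of 200 members and in 58.3% of all genes that could be members. ENSRNOG00000054775.1, shortened in injured liver, was longest in kidney (3041 ± 68 bases, SD, n = 27). Prkd3 (2902 ± 119) and Adamts10 (3637 ± 134) were longer in kidney than in most livers, and ENSRNOG00000030247.5 reached 4681 ± 642. Ccnl2/Aurkaip1 (861 ± 35.5) and Crem (1276 ± 98.6) had means nearer to high-dose than to vehicle liver. The tissues were tabulated separately, so no test was run.

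Whole liver was sequenced, so a change in the share of a cell type and a change of transcripts within a cell cannot be told apart, nor can fewer cells and less RNA per cell. Few marker genes could be matched to an identifier, because symbols came only from the study's list of genes chosen for F0 effects. The matched markers are therefore a selected part of each list, and their levels do not stand for the cell type. The study itself reported that Col1a1 and Acta2, which are on the stellate cell list, rose with dose. For hepatocytes 3 of 22 could (Tat, Cyp1a2, Glul), with summed scaled CPM of 771 to 5225 in vehicle (median 1469), 697 to 3850 at the low dose (median 1313) and 444 to 2158 at the high dose (median 1154). For macrophages 4 of 16 could (Adgre1, Cd163, Cd14, C1qb), at 134 to 244 in vehicle (median 176) and 150 to 289 at the high dose (median 201). Endothelial markers (2 of 11) had medians of 115 in vehicle and 66.1 at the high dose, and Cd4, 1 of 10 lymphocyte markers, had 23.2 and 51.7. Stellate cell, cholangiocyte and dividing cell lists had no matched gene, and none of the matched markers was at 0. The part of cell mixture in the length shifts was not tested. Of the gene lists, 3 of 36 genes known for isoform switching, 9 of 53 splicing factors and 5 of 22 factors of 3′ end formation had an identifier, too few for a statement about any list. Mbnl1 stands in the first and second of these lists. All of these genes could have been members, and Cttn, from the first list, was the only one that was.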

How the data were processed

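Per the labels and the study's methods, the authors made stranded mRNA libraries, sequenced 50-base read pairs, and estimated transcript abundance with Salmon 0.14.0 against rat Ensembl transcripts with GC bias correction, then summarised genes with tximport. The authors deposited each gene's estimated counts as whole numbers, without scaling. Beside them they deposited average transcript lengths in bases. Transcript-level values were not used here, so which transcript changed is not given.

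Lengths were taken to log2 with no pseudocount. limma 3.58.1 (moderated, robust, variance trend on mean log2 CPM) was fitted to the 8728 genes, and edgeR 4.0.16 quasi-likelihood tests with TMM to genes with over 10 reads summed in a group, in R 4.3.3. Group means gave dose and interaction contrasts, and an additive F0, F1 and dose model gave ancestry. Benjamini-Hochberg adjusted p under 0.1 was called (and for dose effects on counts an absolute log2 change over 1). Alternatives included DESeq2 1.42.0. The tests were checked on simulated data drawn independently for each gene and library. The simulation held no litter, date or library-wide effects on length, so it cannot show how the tests behave under them. Litters come from the study's pedigree. Length deviations of litter mates at other doses correlated at a mean of 0.0591 (68 pairs), and 0.123 for other litters of the same cohort and date (84 pairs).

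The rule for members, the gene lists and the rule for named genes were set with earlier results of these data known. Named were members with a symbol with the 12 largest shifts each way, 2 identifiers each way, the edge of the choice, leading F0, F1, interaction and low-dose calls, list genes and extremes of count change. Replicates were separate males, litter mates included, and descent from a shared F0 grandsire was not modelled. Total counts of 31638559 to 51343589 set the precision, and no interval for counting error was given to a length. The values of 1 member with a symbol are not reported here.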

Additional observations from a re-analysis of the deposited data

Results flagged for a closer look

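The lengths of 10 members (the 4 leading identifiers and the 3 most lengthened and 3 most shortened with a symbol) were checked in each of the 12 groups for a library far from the others of its group by Dixon's criterion, which chance alone meets in about 1 group in 20. Of 120 checks, 9 met it. ENSRNOG00000054775.1 was 1629 bases long in replicate 4 of the high-dose group of cohort D (673 to 1003 in the others), 1079 bases in replicate 4 of the vehicle group of cohort C (1818 to 1947) and 1508 bases in replicate 5 of the vehicle group of cohort B (1771 to 1934). ENSRNOG00000042786.4 was 1196 bases long in replicate 1 of the vehicle group of cohort A (1542 to 1800), and Cttn was 1746 bases in the same library (2442 to 2896). In the vehicle group of cohort D, replicate 2 had a Cttn length of 1843 bases (2556 to 2861). Arglu1 was 362 bases long in replicate 9 of the vehicle group of cohort C (116 to 207), and Prkd3 2543 bases in replicate 7 of the high-dose group of cohort D (1722 to 2014), the library with the largest TMM factor. Crem was 1509 bases long in replicate 2 of the high-dose group of cohort B (1180 to 1271). Leaving out the library, an alternative chosen after seeing the data, moved the log2 ratio of high dose over vehicle within its cohort from 0.08 to 0.37 for Arglu1 in cohort C, from 0.22 to 0.14 for Prkd3 in cohort D, from -0.11 to -0.18 for Cttn in cohort D and from -0.0728 to -0.12 for Crem in cohort B, and by less than 1.5 times in the other 5 cases. On the first necropsy date the ratio of Cttn moved from -0.0423 to -0.0942 without the cohort A library and to -0.0859 without the cohort D library. Over all libraries no ratio moved by over 1.5 times. What set these libraries apart was not tested.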

How the results depend on the processing

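Of the 200 members, 183 were chosen again with the library medians of length removed and 195 with differences of mean log2 lengths, but 120 with a minimum CPM of 1 and 96 with a minimum of 20, and 169 to 186 without 1 necropsy date. Members called at the low dose numbered 3 with the study's filter on reads, 3 with library medians removed, 5 with the litter as replicate block, 2 with date as a term, 2 with only vehicle and low-dose groups, and 0 to 3 without 1 date (0 without the first, 3 without the fourth). For the F0 term on length there were 3 at an adjusted p under 0.05, 0 with the litter block and 1 to 37 without 1 date (1 without the first or the third). The F1 term on length gave 0 to 28 without 1 date (28 without the second, where 3588 of 8728 genes were called). Low-dose count calls were 1 to 2 and F0 count calls 13 to 32 without 1 date, and F0 count calls 21 with the litter block (limma in place of edgeR). Leaving out replicate 4 or 7 of the high-dose group of cohort D, chosen after seeing the data, moved no count of called members by over 1.5 times (without replicate 7, 50 for the F0 term on length and 42 on counts). No called value of a named gene changed its sign under any alternative run. The interaction was called in 0 members under every alternative run. Effective lengths shift with the fragment lengths and the GC bias correction of a library. Differences as small as those of 1-transcript genes are therefore at the limit of these data.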
